A study of Drosophila melanogaster with 3 samples.

Results

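The 10 genes described here build the Fat, Dachsous and Hippo system of tissue growth and polarity in Drosophila melanogaster: ds, ft, fj, ex, Mer, kibra, hpo, wts, yki and sd. They were chosen by name, with peak results of these data already known, so their counts are a description and carry no test. For each gene the window was the gene body plus 5000 bp upstream. All summits in 5 deposited peak lists were placed in it. The genes are 10 of 13945 protein-coding genes on the 6 main chromosome arms, and their windows held 30 of 4555 summits of the reproducible peak set.

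The peaks come from chromatin immunoprecipitation with sequencing (ChIP-seq) of Sox15, a transcription factor of the Sox family, which binds DNA through an HMG box. Whole prepupae of mixed sex from the transgenic strain Sox15-GFP were used, in which Sox15 carries a GFP tag at its C-terminus (the fusion Sox15-eGFP), and an antibody against GFP recovered the tagged protein. Their age is given as unknown, and fragments of 200 to 800 bp were made by sonication. There was 1 group of 3 biological replicates, with relaxed lists of 19304, 19033 and 16102 peaks, a relaxed list of 14164 peaks from the pooled replicates, and a set of 4555 peaks that passed a threshold on the irreproducible discovery rate (the IDR set). The IDR set was the 4555 strongest pooled peaks. Each peak has a signal, the authors' own value with no stated scale, so signals are compared only within a list and ranks are given beside them. Read depth is unknown, and a control file is named among the inputs of the lists but was not analysed here. In whole animals, binding in few cells and weak binding in many cannot be told apart. The window of Sox15 itself held 1 IDR summit and 7 pooled summits.

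Fat and Dachsous are giant cadherins that bind each other across cell borders, and Four-jointed, a Golgi kinase, tunes that binding. Fat, together with the scaffold proteins Expanded, Merlin and Kibra, feeds into a kinase cascade in which Hippo activates Warts. Warts phosphorylates the coactivator Yorkie and keeps it out of the nucleus. Nuclear Yorkie drives growth genes with Scalloped, its DNA-binding partner of the TEAD family. The system limits the size of the imaginal discs, the larval precursors of adult structures that are reshaped in the prepupa.

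The sequences at 7 IDR summits are shown first, 100 bp to either side of the summit, as the 3 strongest peaks and 4 examples with matches to known words. The sequences at hpo and yki are not shown, although the yki peak was the fourth by signal and held 3 copies of the first word below. The printed sequences were read from the RefSeq Release 6 assembly, whose coordinates are those of dm6. Capitals mark matches on either strand to any of 8 words: AACAAT (the Sox core), ACAAT (its shorter form, contained in it), ACAAAG (the TCF type), GGAATG (a site for Scalloped and other TEAD proteins), TATCGATA (the DNA replication-related element, DRE), TATAAA (the TATA box), TAATTA (a homeodomain core) and AGATAA (a site for GATA factors). A match is a description and not a binding site.
ds, 588 bp upstream of the start site (chr2L:715471-715671, plus strand): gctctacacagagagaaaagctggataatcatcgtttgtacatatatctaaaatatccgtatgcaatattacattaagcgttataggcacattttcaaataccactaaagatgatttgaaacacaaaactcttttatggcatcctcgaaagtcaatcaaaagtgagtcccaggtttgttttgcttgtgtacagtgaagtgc
ex, intron 3, 10879 bp from the start site (chr2L:442006-442206, plus strand): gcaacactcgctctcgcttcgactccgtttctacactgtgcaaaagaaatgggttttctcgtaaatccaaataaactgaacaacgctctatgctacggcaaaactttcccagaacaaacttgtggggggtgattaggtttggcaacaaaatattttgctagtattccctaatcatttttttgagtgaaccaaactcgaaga
wts, intron 1, 2710 bp from the start site (chr3R:30803809-30804009, plus strand): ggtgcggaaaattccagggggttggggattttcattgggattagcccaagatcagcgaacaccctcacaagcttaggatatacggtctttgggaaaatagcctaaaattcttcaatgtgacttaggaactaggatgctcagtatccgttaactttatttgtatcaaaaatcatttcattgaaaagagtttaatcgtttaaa
Mer, at the start site (chrX:19693320-19693520, plus strand): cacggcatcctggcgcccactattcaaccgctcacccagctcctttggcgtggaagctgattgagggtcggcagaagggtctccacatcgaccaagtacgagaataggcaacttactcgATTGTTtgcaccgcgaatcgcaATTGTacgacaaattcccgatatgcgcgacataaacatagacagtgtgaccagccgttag
kibra, at the start site (chr3R:14724263-14724463, plus strand): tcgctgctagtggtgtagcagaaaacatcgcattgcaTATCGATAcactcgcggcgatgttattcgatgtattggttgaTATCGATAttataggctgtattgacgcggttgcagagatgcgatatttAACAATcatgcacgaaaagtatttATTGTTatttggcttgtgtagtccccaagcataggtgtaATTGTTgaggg
ft, 507 bp upstream of the start site (chr2L:4222203-4222403, plus strand): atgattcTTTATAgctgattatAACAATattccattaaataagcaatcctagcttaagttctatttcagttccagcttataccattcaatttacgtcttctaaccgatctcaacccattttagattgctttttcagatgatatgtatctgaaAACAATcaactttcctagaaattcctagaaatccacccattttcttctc
ex, intron 3, 9893 bp from the start site (chr2L:441020-441220, plus strand): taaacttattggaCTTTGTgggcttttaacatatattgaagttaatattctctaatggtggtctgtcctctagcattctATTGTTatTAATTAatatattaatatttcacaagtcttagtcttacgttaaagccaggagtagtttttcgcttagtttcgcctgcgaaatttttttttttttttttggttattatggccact
The first 3 hold the strongest peaks of the 10 genes and contain none of the 8 words. The kibra stretch lies just upstream of the start site, within a peak that spans it. It holds 3 copies of AACAAT and 2 of TATCGATA, while ft holds 2 copies of AACAAT and Mer holds 1. The last, at ex, holds matches to the Sox core, the TCF type and the homeodomain core.

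Of the 10 genes, 8 had at least 1 IDR summit in the window, where 32.8% of all protein-coding genes had one. The exceptions were fj and sd. Summits were most numerous at ds, ex and kibra, with 6 each, and at wts, with 5. The ft window held 3, the Mer window 2, and the hpo and yki windows 1 each. At least 5 IDR summits were found at 4 of the 10 genes and at 1.01% of all protein-coding genes. All 10 genes had a summit in the pooled list and in each replicate list, where the share of all protein-coding genes was 61.0% for the pool and 70.1%, 70.1% and 66.1% for replicates 1, 2 and 3. In total 62 pooled summits lay in the windows, with 76, 72 and 50 in replicates 1, 2 and 3.

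**Figure D1:**
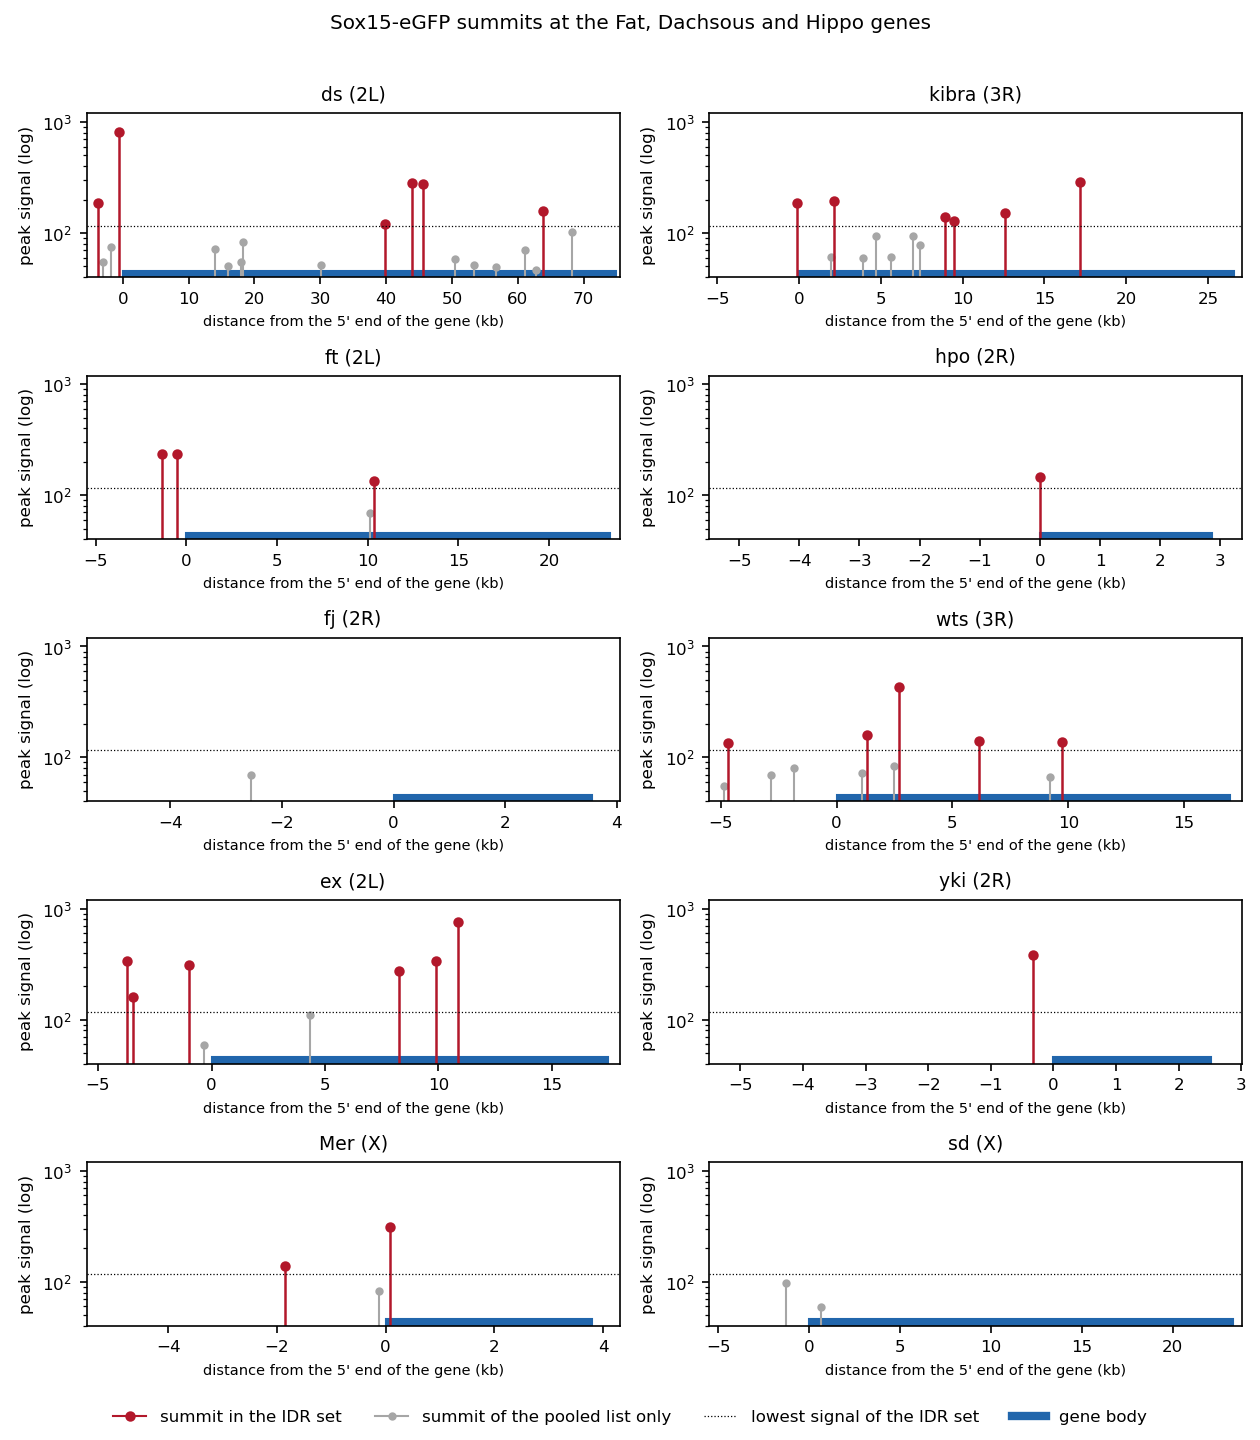
Pooled summits at the 10 genes, with distance from the 5' end of the gene in kb on the x axis (negative is upstream) and the authors' peak signal on a log axis. Red marks the 30 summits of the IDR set, grey the weaker pooled summits, the dotted line the lowest signal in the IDR set (116.6) and the blue bar the gene body. The ds, ex, kibra and wts windows hold 5 or 6 red summits each, and the fj and sd windows hold none.

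Long windows collect more summits, and several of these genes are long. The ds window, of 79971 bp, was longer than that of 98.9% of protein-coding genes, and 6 of the 10 windows reached 20000 bp. Of those 6, 5 had an IDR summit, against 56.4% of all protein-coding genes with a window that long. Of the 4 shorter windows, 3 had one, against 30.2%. At least 5 IDR summits were found in 4 of the 6 long windows and in 9.35% of all long ones. Per length, the 10 windows held 1.22 IDR summits per 10 kb, where the 6 arms held 0.34 and all long coding windows together 0.338. The density was highest at ex, with 2.67 per 10 kb, followed by Mer and wts with 2.27 each and kibra with 1.9. It was 1.33 at yki, 1.27 at hpo, 1.06 at ft and 0.75 at ds, whose many summits are spread over a very long gene. The yki and hpo values rest on 1 summit each and the Mer value on 2, in short windows, for which no density over all coding genes is given. Of the 2 Mer summits, 1 lay 102 bp from the start site of the neighbour CG14229.

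**Figure D2:**
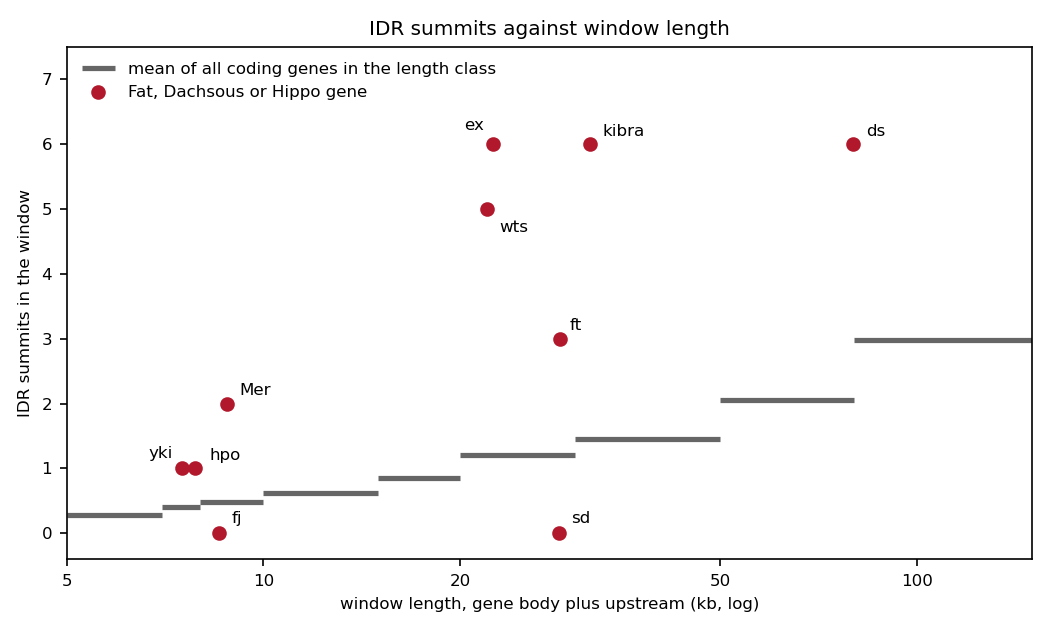
IDR summits per window against window length in kb on a log axis. Red points are the 10 genes, and grey bars are the mean over all protein-coding genes in each length class, which rises from 0.28 to 2.98. The points of the 8 genes with an IDR summit lie above the bar of their class, and those of fj and sd lie at 0. With 1 summit each, hpo and yki could not lie below their bar, since the mean of their class is 0.408.

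The cadherin gene ds encodes the ligand of Fat (FBgn0284247, 2L, 640013 to 714983, minus strand). Its summit 588 bp upstream of the only annotated start site had the highest signal of the 10 genes, 810.2, at rank 180 of the IDR set. In replicates 1, 2 and 3 the peak had signals of 377.4, 213.4 and 217.1 and ranks of 207, 209 and 128. It was thus near the top of every list, and its summit moved by at most 6 bp between the pool and the replicates. The pooled peak spanned 245 bp, while 28 of the 30 peaks had a width within 1 bp of 396 bp, the median of the IDR set. Of all IDR peaks, 83.8% had such a width, so a narrower peak was not particular to ds. A weaker summit, 3705 bp upstream, had a signal of 185.1 and rank 2620. The other 4 ds summits lay far inside the gene. A group of 3 lay in the second of 11 introns, 39848, 43997 and 45557 bp into the gene, and had signals of 120.0, 281.9 and 275.8. The last lay in the sixth intron, 63916 bp from the start, with a signal of 157.5. The nearest coding start site to it was that of CG2839, 25415 bp away. The intron summit of signal 120.0 was the weakest IDR peak among the 10 genes and ranked 4333, 2990 and 5403 in the replicates.

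The gene of the receptor, ft (FBgn0001075, 2L, 4198404 to 4221796, minus strand), had a pair of upstream summits of nearly equal signal. The summit 507 bp upstream had a signal of 234.1, and that 1332 bp upstream had 236.7, with ranks of 1866 and 1843. The first was present in every replicate, with signals of 134.9, 48.70 and 37.28 at ranks 1503, 2725 and 3151. The second had signals of 139.7 and 71.74 in replicates 1 and 2, at ranks 1431 and 1602, and replicate 3 had no overlapping peak even in its relaxed list. Such a gap was uncommon: replicate 3 lacked any overlap for 46 of the 4555 IDR peaks, or 1.01%. The third ft summit, in the second of 8 introns 10348 bp from the start, had a signal of 135.0 and ranked 2599, 3779 and 7083 in the replicates. The ft peaks were therefore weaker in rank in replicate 3 than in replicates 1 and 2.

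The kinase gene fj (FBgn0000658, 2R, 18232761 to 18236311, plus strand) had no IDR summit. Its single pooled summit, 2549 bp upstream, had a signal of 69.79 at rank 7778 of 14164, below the lowest IDR signal of 116.6. That summit lay in an exon of the non-coding RNA gene lncRNA:CR45311, and the nearest coding start site was that of CG46388, 1353 bp away. Replicates 1 and 2 had a summit close to the pooled one, with signals of 29.06 and 34.94 at ranks 9705 and 4088. Replicate 3 had none there. It had weak summits 37 and 4511 bp upstream of the fj start site instead, with signals of 16.1 and 14.95 at ranks 12423 and 15023. Replicate 2 had a weak summit near the latter, 4450 bp upstream, with a signal of 13.46. The next IDR summit upstream lay 2717 bp beyond the edge of the window.

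Among the scaffold genes upstream of the kinases, ex encodes a FERM-domain protein (FBgn0004583, 2L, 431227 to 448701, plus strand), and its 6 IDR summits fell into an upstream group and an intronic group. The upstream summits, at 3705, 3455 and 991 bp, had signals of 338.3, 159.5 and 310.1. The peaks at 3705 and 3455 bp overlapped. The intronic summits, at 8259, 9893 and 10879 bp into the gene, all in the third of 5 introns, had signals of 273.1, 336.4 and 752.0. The summit at 10879 bp was the second strongest of the 10 genes, at rank 217, with ranks of 270, 231 and 132 in the replicates and signals of 337.9, 204.7 and 215.4. Like the upstream ds peak, it was narrower than the rest of the 30 peaks, at 226 bp, and near the top of every list. The nearest coding start site to it was that of crq, a scavenger receptor gene, 9196 bp away. The summit at 8259 bp lay 53 bp from the start of the non-coding RNA gene lncRNA:CR43717. The median signal of the 6 ex summits was 323.2, against 205.2 over the IDR set. The peak at 3455 bp differed most between replicates, with ranks of 2859, 4485 and 8415.

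Mer encodes the other FERM scaffold (FBgn0086384, X, 19689697 to 19693500, minus strand). Its stronger summit lay 80 bp inside the gene, with a signal of 313.0 at rank 1205 and replicate ranks of 1277, 968 and 1739. It was the only IDR summit of the 10 genes with GC content over 50%, at 52.7% within 100 bp. The second summit in the Mer window, with a signal of 140.1, lay 1852 bp upstream of Mer but 102 bp from the start of CG14229, so it counts as a promoter summit of that neighbour.

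The WW-domain scaffold gene kibra (FBgn0262127, 3R, 14697689 to 14724261, minus strand) had 6 summits, 1 at the start site and 5 in the first of 8 introns. The start site peak, 102 bp upstream, had a signal of 184.8 and replicate ranks of 2988, 3515 and 1818. In the first intron, summits at 2159, 8916, 9471, 12612 and 17187 bp had signals of 192.2, 138.3, 127.3, 152.1 and 289.9. The strongest was thus the deepest in the gene, and it ranked 1771, 1198 and 1133 in the replicates. It lay 9782 bp from the start of Meltrin, a metalloprotease gene, the nearest coding start site. All 6 kibra peaks were matched in the top lists of all 3 replicates, although their signals were moderate, with a median of 168.4. A further IDR summit lay 141 bp beyond the upstream edge of the window and was not counted.

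Of the core kinase genes, hpo (FBgn0261456, 2R, 19493996 to 19496856, minus strand) had 1 IDR summit, exactly at its start site. Its signal was 147.3 at rank 3486. In replicates 1, 2 and 3 the signals were 99.74, 20.59 and 23.44, at ranks 2333, 7373 and 5688. It ranked among the top 4555 peaks in replicate 1 and not in replicates 2 or 3, which was true of no other IDR peak of the 10 genes. The wts gene (FBgn0011739, 3R, 30789625 to 30806619, minus strand) had 5 summits, all of them matched in every replicate. The strongest, in the first of 7 introns and 2710 bp from the start site, had a signal of 427.1 at rank 721. It had signals of 200.1, 129.2 and 103.9 and ranks of 796, 606 and 674 in replicates 1, 2 and 3, and in each replicate only the strongest ds and ex peaks among the 30 had a higher signal. The others had signals of 135.3 to 159.0. Of these, 1 lay 1311 bp from the start in the first intron, 1 at 6163 bp in the 5' UTR, and 1 at 9716 bp in the second intron. The fifth, 4671 bp upstream, lay in an intron of cindr, a neighbour that encodes an adaptor protein of the CIN85 family.

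The effector gene yki (FBgn0034970, 2R, 24065975 to 24068485, minus strand) had 1 summit, with a signal of 385.6 at rank 858. It had signals of 193.3, 113.6 and 65.93 and ranks of 850, 770 and 1386 in the replicates. The summit lay 333 bp upstream of the yki start site and 61 bp from the start of Gpat4, an acyltransferase gene that it overlapped, so it was within 500 bp of both start sites. The gene of its DNA-binding partner, sd (FBgn0003345, X, 15804370 to 15827682, plus strand), had no IDR summit in spite of 7 start sites and a window of 28313 bp. Its best pooled peak had a signal of 97.01 at rank 5526, and lay 148 bp from the start of PGRP-LE, which encodes a peptidoglycan receptor. The other pooled summit in the sd window lay 486 bp upstream of an sd start site, with a signal of 59.69 at rank 9312. In the replicates the best peaks in the sd window had signals of 54.48, 20.49 and 17.41, at ranks 4923, 7419 and 10159. They too lay near the start of PGRP-LE, at 140, 123 and 168 bp, and replicate 3 had no other summit in the sd window. The closest peaks on either side of the IDR threshold were the ds intron peak of signal 120.0 inside it and an ex peak of signal 109.6 outside it.

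The replicates placed most of these peaks alike. A match was a peak among the 4555 strongest of a replicate that covered at least 50% of the IDR peak. Replicates 1, 2 and 3 matched 30, 29 and 24 of the 30 peaks. The shares over all IDR peaks were 92.1%, 89.3% and 86.0%. The 30 peaks were thus matched more often than the whole set in replicates 1 and 2, and less often in replicate 3. All 3 replicates matched 24 of the 30 peaks, where the share over all IDR peaks was 73.4%. Another 5 were matched in 2 replicates and 1, that of hpo, in 1. The strongest ds peak was among the 5 only because replicate 3 gave it a peak of 120 bp, too short to cover 50% of the pooled peak. The relaxed lists overlapped all 30 peaks in replicates 1 and 2 and 29 in replicate 3. The summits moved by a median of 7, 20 and 18 bp between the pool and replicates 1, 2 and 3, and by at most 84 bp. Spearman's rho of the signal over these peaks was 0.803 for replicates 1 and 2 (n = 30 peaks), 0.729 for 1 and 3 and 0.789 for 2 and 3 (n = 29 peaks). The pool holds the reads of all replicates, so this agreement is partly built in.

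**Figure D3:**
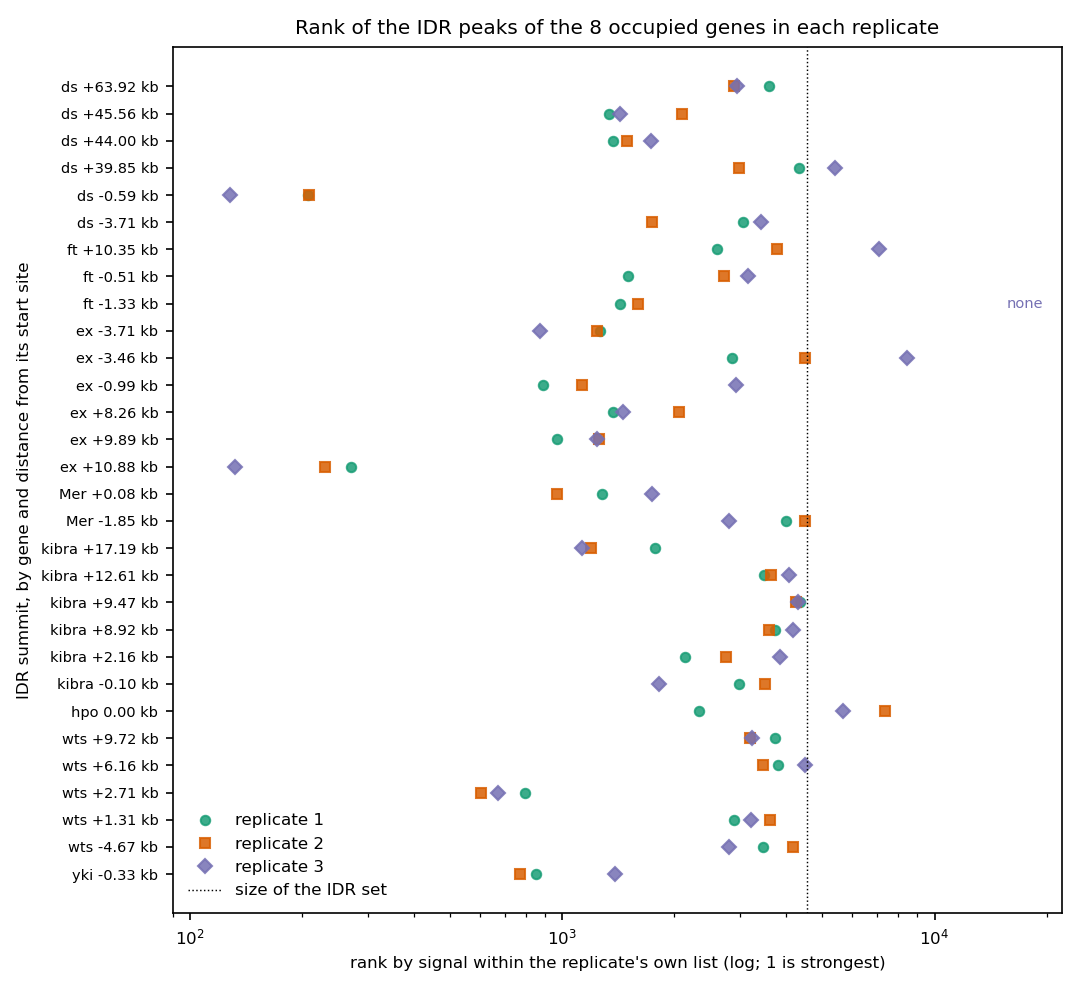
Rank by signal, on a log axis where 1 is strongest, of the 30 IDR peaks in each replicate's own list. Rows are summits, named by gene and distance from its start site in kb (negative is upstream), and the dotted line marks rank 4555. The ds peak at -0.59 kb and the ex peak at +10.88 kb rank between 128 and 270 in every replicate, the hpo peak passes the line in replicate 1 alone, and the ft peak at -1.33 kb has no counterpart in replicate 3.

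As to position, introns outside promoters held 16 of the 30 summits (53.3%, against 40.7% of all IDR summits). Promoters, within 500 bp of any start site, held 6 of 30 (against 41.3%). Intergenic sequence held 7 (23.3%, against 16.2%), the 5' UTR 1, and coding exons 0. At Mer, kibra, hpo and yki, 1 summit each lay within 500 bp of the gene's own start site. At ft and ds, the summit nearest to the start site lay just beyond, at 507 and 588 bp. Background at promoters that a control would show is not separated from binding of the tagged protein in these values. For 23 of the 30 summits the nearest coding start site was that of the gene itself, and 11 of the 30 lay upstream of it. The median signal of the 30 peaks was 188.6, close to the 205.2 of the whole set, and 6 of the 30 were in the strongest 25% of it.

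The summits were poor in GC, as summits were in general. The median GC content within 100 bp was 35.0%, against 33.8% over all IDR summits and 42.2% over the arms, with a range of 23.9% at a kibra intron summit to 52.7% at Mer. The Sox core AACAAT was present within 100 bp at 13 of the 30 summits (43.3%), against 24.6% of all IDR summits. Within 250 bp it was present at 15 of 30, against 47.7%, so the shares were close in that wider window. All Mer summits and the yki summit carried it, as did 3 of 6 at ex, 2 of 3 at ft, 2 of 6 at kibra, 2 of 5 at wts, 1 of 6 at ds and 0 of 1 at hpo. The shorter ACAAT was present at 60.0%, against 51.3%. GGAATG, the word bound by Scalloped, was present at 0 of 30, against 6.63% of all IDR summits. TATCGATA was found at 1 of 30 (1.95% of all summits), ACAAAG at 2 (13.2%), AGATAA at 4 (15.2%), and TAATTA and TATAAA at 7 each (19.3% and 37.8%). Of the 6 strongest peaks, 3 had the Sox core, and the 3 at the top, at ds, ex and wts, did not.

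**Figure D4:**
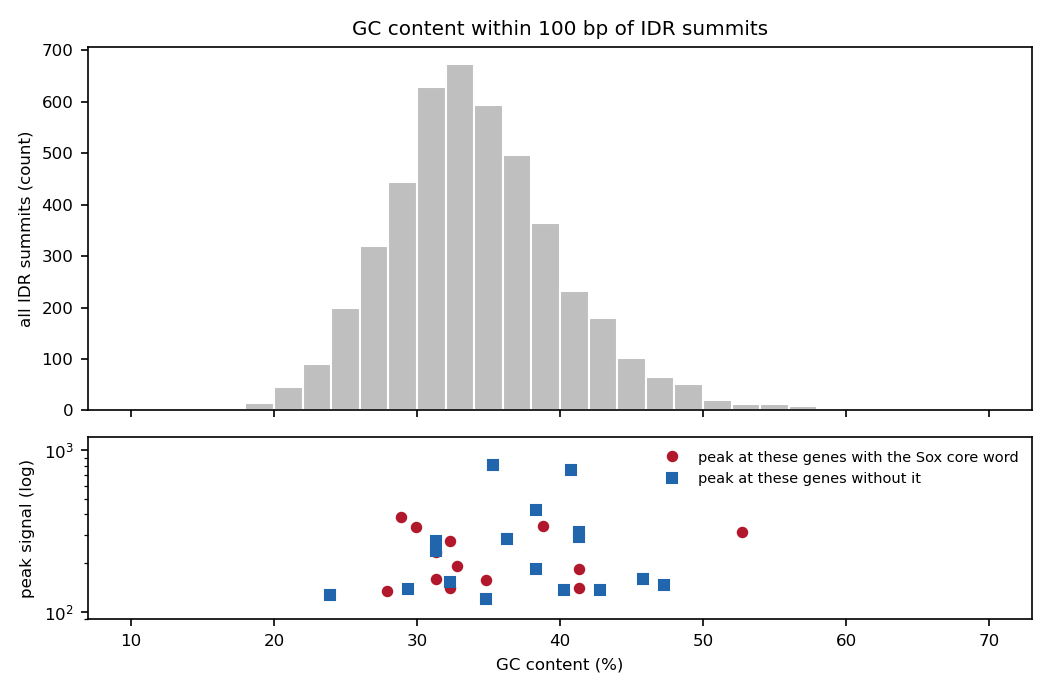
GC content within 100 bp of the summit, in percent. The upper panel counts all 4555 IDR summits, and the lower panel shows the signal (log axis) of the 30 peaks at these genes, in red with AACAAT and in blue without. The red points reach a signal of 385.6, and the 3 strongest peaks are blue.

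A wider list of the pathway, of 49 other coding genes, was read in the same way. It was set from textbook knowledge, with earlier results of these data known. Of the 49, 31 had an IDR summit (63.3%), against 32.8% of all protein-coding genes. At least 5 IDR summits were found at 5 of the 49, against 1.01% of all protein-coding genes. Those 5 genes all had windows of 20000 bp or more, and 9.35% of all coding windows that long held at least 5. With only IDR peaks matched in all 3 replicates, 27 of the 49 had one, against 26.3%. The single IDR peaks at Pez, elgi, Cka and mask were matched in 0, 1, 2 and 2 replicates. Of its 19 windows of 20000 bp or more, 18 had one, against 56.4% of all windows that long. The groups below are read against the same 32.8%, which is not matched for window length. By length, that share was 30.2% for windows under 20000 bp and 56.4% for longer ones. Windows of at least 20000 bp were held by 2 of 8 Fat branch, 5 of 13 upstream and core and 0 of 5 STRIPAK genes. They were also held by 4 of 7 nuclear partners, 4 of 6 Yorkie targets and 4 of 10 Frizzled polarity genes. In the Fat branch, 6 of 8 genes had one (75.0%). Fbxl7, which encodes an F-box protein that binds Fat, had the highest signal, 730.6, 1327 bp upstream. The palmitoyltransferase gene app had 570.3 at its start site, dco 395.0, the unconventional myosin gene dachs 279.5 (nearest to CheA29a), Rassf 161.0 and elgi 120.4. The genes Dlish and lft had none.

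Among the upstream and core Hippo genes, 8 of 13 had an IDR summit (61.5%, against 32.8% of all protein-coding genes). The apical polarity gene crb had a signal of 740.1, 1010 bp into the gene, close to that of the strongest ex peak. Magi had 266.8, msn 257.4 with 5 summits, par-1 235.3, Sik3 229.0, mats 193.8, hppy 125.5 and Pez 119.3. The summits of Magi, par-1 and Pez were nearer to the start sites of Xbp1, CG7744 and Cpr. The cofactor of Hippo, sav, had none, nor had Tao, jub, Zyx or Schip1. Of 5 STRIPAK genes, whose complex opposes Hippo, Strip (183.6) and Cka (119.0) had one, and Mob4, Slmap and Fgop2 had none. That count, 2 of 5, is near the 32.8% of all protein-coding genes. The strongest summit in the Strip window was nearest to Gtpx.

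Downstream, 5 of 7 nuclear partners had an IDR summit (71.4%, against 32.8% of all protein-coding genes). The wing selector gene vg, which also binds Scalloped, had 398.1, in the promoter of Nmda1. Mad had 231.9, hth 228.0, Tgi 175.3 (nearest to Spt20) and mask 134.8. Neither tsh nor Wbp2 had one. Of 6 classical target genes of Yorkie, 5 had one (83.3%, against 32.8%): the growth gene Myc with 865.2 in an intron at rank 151, CycE with 568.0, dlp with 408.4, the cell death inhibitor gene Diap1 with 310.3 and dally with 276.1. There were 7 summits at dlp, 5 at dally and 4 each at Diap1 and Myc, and none at wg. In the Frizzled polarity system, which works beside Fat and Dachsous, 5 of 10 genes had one (against 32.8%). The strongest were at dsh (621.3, nearest to CG1737), fz (576.1 with 6 summits, the strongest nearest to CG13481), dgo (261.3, nearest to CG12325), stan (178.5) and pk (170.5). The genes Vang, fy, in, frtz and mwh had none.

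The genes most like ds in the rank share of their strongest IDR peak over the 3 replicates were CG31368, CG6962 and mthl5, which share 1 peak (3R, 11887242 to 11887462, signal 822.8). The differences in rank share summed to 0.153 percentage points over the 3 replicates.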

How the data were processed

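The authors deposited 1 relaxed narrowPeak list per replicate, 1 from the pool and 1 IDR set, on dm6 and dm3. Only dm6 lists were used. The deposited signal per peak has no stated scale, and the deposited −log10 q-value was read but not used for a threshold. The p-value column of the deposited lists holds a placeholder. Which aligner and caller the authors ran is not given in the sources used here. Genes came from Ensembl release 115 (BDGP6) and sequence from RefSeq Release 6, which share the dm6 arms. Summits were placed in windows with Python 3.11.15 and pandas 2.3.3. A summit within 500 bp of any start site was a promoter summit, and the rest were classed by exon parts first, then intron, then intergenic sequence. The steps were tested on simulated data. With 1 group there is no contrast, and no test was made. The 10 genes and the lists were chosen with earlier results of these data known. Genes named are the 10, genes nearest to or overlapping their IDR summits, wider-list genes with an IDR summit, and the 3 most like ds. Wider-list genes without a summit, the genes nearest to wider-list summits, PGRP-LE at sd, and CG46388 and lncRNA:CR45311 at fj fall outside that rule. They were added after their values were seen. The wider list used dachs for d, and the non-coding mir-ban was kept apart. Alternatives changed the window, the peak set, the overlap and the word window.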

Additional observations from a re-analysis of the deposited data

How the results depend on the processing

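Of 44 alternatives to 8 counts, 36 stayed within 1.5 times the main count. That tally compares counts and not the shares beside them. AACAAT within 250 bp, at 15 of 30 summits, stayed within it although 47.7% of all IDR summits had the word there. At least 7 of the 10 genes had an IDR summit under every alternative tried, where the share of all coding genes, computed for all but the nearest-start setting, ran from 10.8% to 43.2%. The 30 summits fell to 19 with gene bodies alone, to 7 within 1000 bp of a start site of the gene, and to 14 among the IDR peaks of highest signal. Genes with a summit in every replicate list fell from 10 (51.6% of all coding genes) to 6 (18.4%) with gene bodies alone. Peaks matched in all replicates fell from 24 to 8 when 90% had to be covered. The median peak width was 384, 360 and 364 bp in replicates 1, 2 and 3, against 396 bp in the IDR set. No share over all IDR peaks is given for that setting. Summits with AACAAT fell from 13 (24.6% of all IDR summits) to 8 (13.3%) within 50 bp. The wider list fell from 31 genes (32.8% of all coding genes) to 14 (19.3%) within 1000 bp of a start site and to 20 (20.4%) with the strongest peaks. By construction, these settings keep fewer peaks or shorter stretches of sequence. When IDR peaks were kept only if matched in both replicates left after leaving out each in turn, 24 to 29 summits and 7 genes remained, and hpo was lost each time. With 50% of the shorter peak covered, chosen after seeing the data, 25 peaks were matched, against 76.0% of all IDR peaks. No paired analysis was possible because there is 1 group. Depth is unknown, so weak peaks at fj and sd are not shown to be absent.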

Other observations

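The growth-promoting microRNA gene mir-ban, a Yorkie target outside the coding lists, had 1 IDR summit 1448 bp upstream, with a signal of 485.2 at rank 580, matched in all 3 replicates.

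The genes ex and ds lie near each other on 2L, with 191311 bp between them, and hold 12 of the 30 IDR summits and both of the strongest peaks of the 10 genes. Their windows, of 22475 and 79971 bp, also make up much of the 245447 bp of all 10 windows, and the count of 12 is not adjusted for that length.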
